A study of Sus scrofa with 15 samples.

Results

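The proximal tyrosine kinases and scaffolds of activating NK cell receptors were followed across porcine NK cell populations. The genes were taken by symbol: the kinases *LCK*, *FYN*, *ZAP70*, *SYK* and *TXK*, the scaffolds *LAT* and *LCP2*, and the phospholipases *PLCG1* and *PLCG2*. Of these 9 symbols, 8 matched a row among the 29886 genes counted, and all 8 were among the 10939 genes that passed the filter on low counts. *ZAP70* was not analysed here.

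Sequencing read the 3′ ends of transcripts in 15 libraries, made from 3 NK cell populations of the same 5 untreated pigs, all 6 months old. Conventional NK (cNK) cells came from blood and were CD3-CD172a-CD8α high. Liver CD8α high NK cells and liver-resident CD8α dim NK (lrNK) cells were sorted from the fluid that flushed the liver through the portal vein, with the same CD3 and CD172a gates. Each library holds the bulk RNA of sorted cells of 1 pig, so that every comparison is between cell populations and not between treatments.

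Total counts ran from 2874092 to 3823973 (median 3749615) in blood cNK cells, from 2886686 to 5680221 (median 3877028) in liver CD8α high NK cells, and from 2003499 to 3776823 (median 2407859) in lrNK cells. Levels are given as counts per 1000000 (CPM) after TMM scaling, in the order of pigs 1 to 5. The lrNK library of pig 3 stood apart, with a root mean square log2 difference of 1.46 from the other 4 lrNK libraries, against 0.643 to 0.996 for each of the other libraries within its own population. Results that rest on this library are given with and without it. The 10 NK cell markers, with *IL2RB* as the most abundant in 14 of 15 libraries, summed to 5324 ± 811 CPM in blood cNK cells, 5477 ± 492 in the liver CD8α high population and 6379 ± 2388 in lrNK cells (SD, n = 5). The exception was the same lrNK library of pig 3, with the lowest sum (3746.5 CPM) and *IL2RB* at 381 CPM, against 2503 to 5900.1 CPM in the other lrNK libraries. In edgeR at an adjusted p under 0.05, 4 of the 10 markers were higher and 2 lower in lrNK than in blood cNK cells. Among all genes tested, 8.62% were higher and 9.60% lower. Mean *NCR1* was 282 CPM in lrNK and 50.8 CPM in blood cNK cells, and mean *GZMB* was 32.9 and 209 CPM. *CD8A*, whose protein defined the gates, was at 29.5 to 57.0 CPM in lrNK cells and at 229 to 634 in the other populations.

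Activating NK cell receptors carry no kinase of their own and pair with small adaptor chains that hold tyrosine motifs. SRC family kinases such as LCK and FYN phosphorylate these motifs, SYK and ZAP70 dock on them and become active, and the scaffolds LAT and LCP2 then gather the enzymes of the next step. Phospholipase C-γ, activated with the help of TEC family kinases such as TXK, splits a membrane lipid into messengers that release calcium and recruit protein kinase C and RAS exchange factors.

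Of the 8 genes, 4 were higher in lrNK cells than in blood cNK cells (*FYN*, *TXK*, *LCP2* and *PLCG2*) and 2 were lower (*LAT* and *PLCG1*), at an adjusted p under 0.05 in the quasi-likelihood test of edgeR, adjusted by the Benjamini-Hochberg method over all genes tested. By the same rule, 18.2% of all genes tested differed between these populations, 8.62% higher and 9.60% lower. Against liver CD8α high NK cells, the same 4 genes were higher in lrNK cells and *PLCG1* was lower, where 14.6% of all genes differed, 6.96% higher and 7.68% lower. The CPM of 5 of the 8 genes did not overlap between lrNK and blood cNK cells, as for 13.5% of all genes, and 5 did not overlap between lrNK and liver CD8α high NK cells, as for 11.9%. The median log2 fold change of the 8 genes was 0.16 against blood cNK cells, where that of all genes was 0.01, and 0.18 against liver CD8α high NK cells, where that of all genes was 0.02. Both comparisons share the lrNK libraries, and the 8 genes were chosen with earlier results of these data known. In bulk RNA, fewer cells of a type and less RNA per cell cannot be told apart.

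Between liver CD8α high NK cells and blood cNK cells, none of the 8 genes passed the adjusted threshold in edgeR. The count was also 0 with the pig as a block, in DESeq2, and at an unadjusted p under 0.05, which 5.02% of all genes tested (549 of 10939) met. Among all genes, 0.0640% differed, and 2.01% did not overlap in CPM. *LCP2* was the 1 gene of the 8 without overlap.

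**Figure D1:**
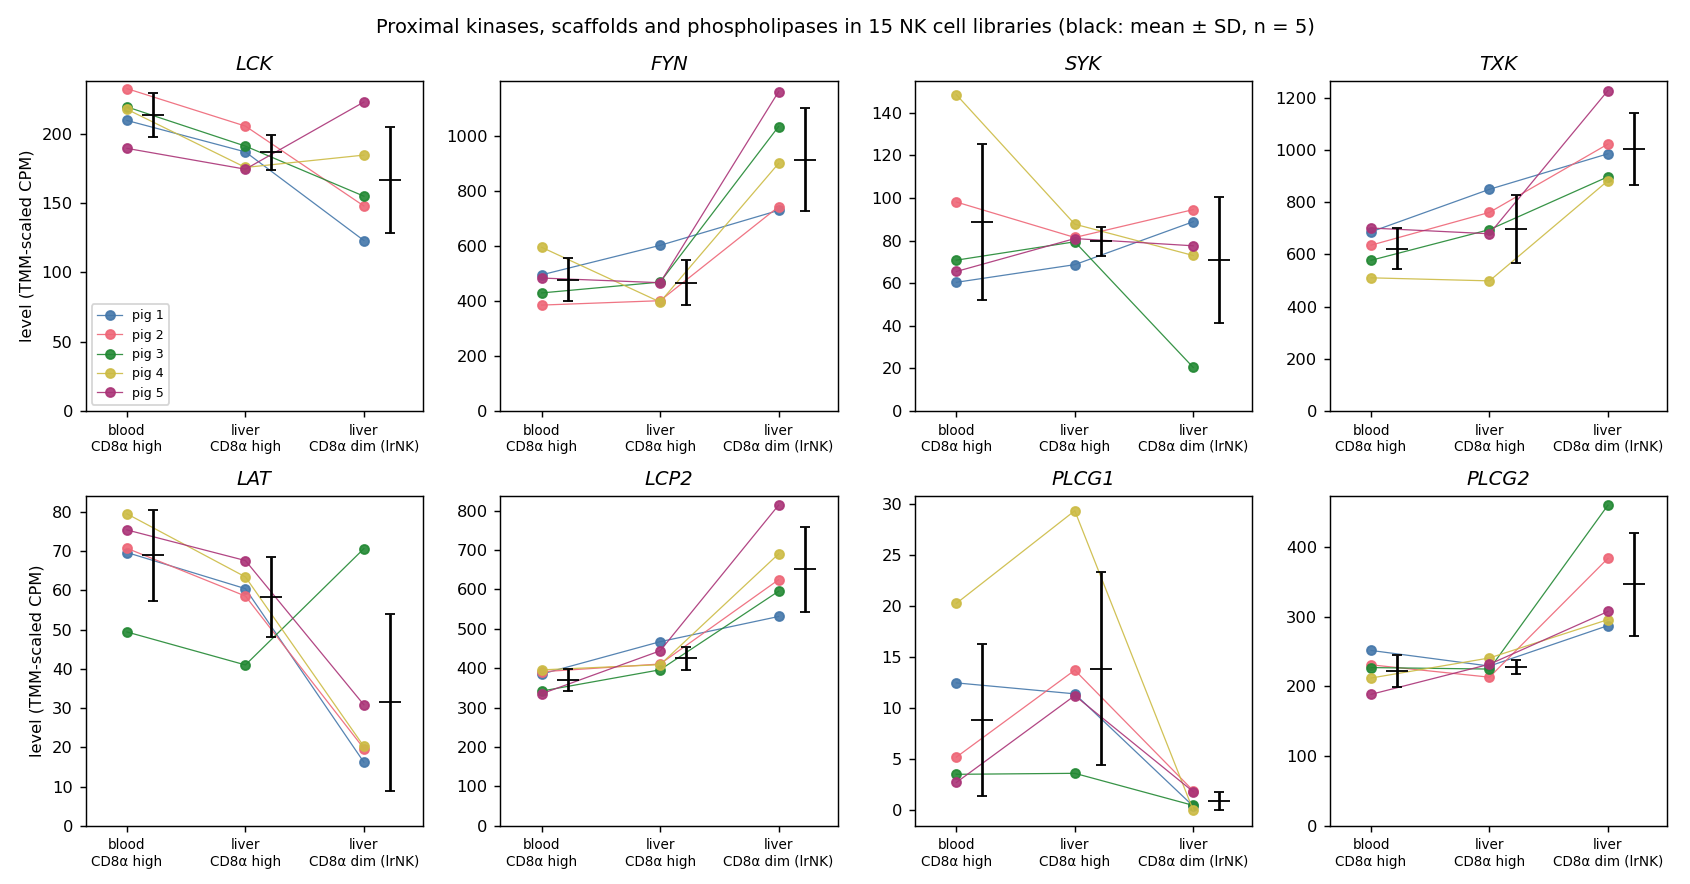
Level of each gene in TMM-scaled CPM (vertical axis, linear) in the 15 libraries, with coloured points joined by pig and black marks for the mean ± SD of 5 pigs. In every pig *FYN*, *TXK*, *LCP2* and *PLCG2* were highest in lrNK cells and *PLCG1* was lowest there, while the lrNK library of pig 3 stood at 70.6 CPM for *LAT* and 20.5 CPM for *SYK*.

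*FYN*, a SRC family kinase that phosphorylates receptor motifs, was at 729, 743, 1034, 900.1 and 1161 CPM in lrNK cells. By contrast it was at 495, 385, 429, 595 and 483 CPM in blood cNK cells, and 602, 401, 469, 396 and 466 CPM in liver CD8α high NK cells. The lowest lrNK library was above the highest library of either other population, whereas the CD8α high populations overlapped. The means were 913 ± 186, 478 ± 79.1 and 467 ± 83.1 CPM in that order (SD, n = 5), or 1.91 times the blood level and 1.96 times the liver CD8α high level. On the log2 scale, *FYN* rose by 0.94 ± 0.17 (SE) in lrNK cells over blood cNK cells, in 5 of 5 pigs (adjusted p = 3.70e-04, edgeR with Benjamini-Hochberg adjustment). Over liver CD8α high NK cells the rise was 0.97 ± 0.17, also in 5 of 5 pigs (adjusted p = 3.19e-04, edgeR, Benjamini-Hochberg). Within pigs, the log2 difference between lrNK and blood cNK cells ran from 0.56 in pig 1 to 1.27 in pig 3. The liver CD8α high library of pig 1 was the highest of its population for *FYN*, *TXK* and *LCP2*, but not for *PLCG2*. It held 167 CPM of *NCR1* and 53.2 of *SIT1*, against 11.2 to 40.6 and 3.34 to 9.65 in the others of that population. The blood library of pig 1 was also the highest of its population for both, at 101 and 15.2 CPM. The other blood libraries were at 26.3 to 49.6 and 6.14 to 9.89 CPM. In lrNK cells pig 1 was highest for *NCR1* (356 CPM) but not for *SIT1* (117 CPM). Why the liver CD8α high library of pig 1 stood higher was not tested.

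*LCK*, the other SRC family kinase taken here, did not share this pattern. It was at 209.5, 232, 219, 218 and 189 CPM in blood cNK cells, 187, 205, 191, 176 and 174 CPM in the liver CD8α high population, and 123, 148, 155, 185 and 223 CPM in lrNK cells. The lrNK libraries spread most, and those of pigs 4 and 5 lay among those of the CD8α high populations. Mean *LCK* was 167 ± 38.3 CPM in lrNK cells against 214 ± 15.9 in blood and 187 ± 12.7 in liver CD8α high NK cells (SD, n = 5). The log2 difference between lrNK and blood cNK cells was −0.36 ± 0.16, lower in 4 of 5 pigs, with a 95% interval from −0.68 to −0.03, and did not pass (adjusted p = 0.125, edgeR, Benjamini-Hochberg). Set against the liver CD8α high population, *LCK* stood at −0.16, with an interval from −0.48 to 0.16 (adjusted p = 0.590, edgeR, Benjamini-Hochberg). Within a library, the log2 ratio of *LCK* to *FYN* CPM (each plus 1) was −2.73 to −2.28 in lrNK cells, −1.45 to −0.73 in blood cNK cells and −1.68 to −0.96 in liver CD8α high NK cells. This ratio is a description, and its size depends on both genes' 3′ ends as well as on their RNA. Of the other SRC family kinases, *LYN* was at a log2 difference of 0.27 from blood cNK cells in lrNK cells (adjusted p = 0.337, edgeR, Benjamini-Hochberg).

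*SYK*, which docks on phosphorylated motifs, was at 60.4, 98.1, 70.8, 149 and 65.5 CPM in blood cNK cells, 68.7, 81.5, 79.5, 87.7 and 81.0 CPM in the liver CD8α high population, and 88.9, 94.6, 20.5, 73.0 and 77.6 CPM in lrNK cells. The populations overlapped, and the extremes were the blood library of pig 4 and the lrNK library of pig 3. Mean levels were 88.7 ± 36.5, 79.7 ± 6.89 and 70.9 ± 29.5 CPM (SD, n = 5). The log2 difference of lrNK cells was −0.32 ± 0.30 from blood cNK cells, with a 95% interval from −0.95 to 0.31 (adjusted p = 0.536, edgeR, Benjamini-Hochberg). From liver CD8α high NK cells it was −0.17, with an interval from −0.79 to 0.46 (adjusted p = 0.808, edgeR, Benjamini-Hochberg). Without the lrNK library of pig 3 these differences were −0.07 and 0.07, so the sign against liver CD8α high NK cells rested on that library. The blood library of pig 4 also held 302 CPM of the red cell gene *HBB*, which was at 0 to 6.03 CPM in the other blood libraries; its part in the *SYK* level was not tested.

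Among the adaptor chains that carry the motifs, 1 of 4 was higher and 1 lower in lrNK than in blood cNK cells (8.62% and 9.60% of all genes tested). *CD247*, the CD3ζ chain, was at 356, 331, 669, 358 and 362 CPM in lrNK cells and at 252 to 320 in blood cNK cells, with pig 3 far above the other lrNK libraries. Its log2 difference was 0.54 ± 0.18 (adjusted p = 0.0379, edgeR, Benjamini-Hochberg), and *HCST*, the adaptor chain of NKG2D, fell by 0.51 ± 0.17 (adjusted p = 0.0387, edgeR, Benjamini-Hochberg). Neither call held without pig 1, pig 3, pig 5 or the lrNK library of pig 3 (0 of 4 chains in each case), and *HCST* also lost it without pig 2 (adjusted p = 0.187) and *CD247* without pig 4 (adjusted p = 0.0863, both edgeR with Benjamini-Hochberg adjustment). Without the lrNK library of pig 3, *CD247* stood at 0.32 against blood cNK cells. Against liver CD8α high NK cells *CD247* rose by 0.54 (adjusted p = 0.0479, edgeR, Benjamini-Hochberg), a call that did not hold once pigs were blocked (adjusted p = 0.0583) or with any 1 pig left out (adjusted p = 0.0504 to 0.296, both edgeR with Benjamini-Hochberg adjustment). *FCER1G* and *TYROBP* were at 0.02 and 0.15 on the log2 scale against blood cNK cells, and did not pass.

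*TXK*, a TEC family kinase of T and NK cells that acts on phospholipase C-γ, was at 985, 1022, 897, 882 and 1227 CPM in lrNK cells. It was at 686, 635, 577, 509.9 and 700.5 CPM in blood cNK cells, and at 849, 760.5, 695, 498 and 679 CPM in liver CD8α high NK cells. All lrNK libraries were above all blood and liver CD8α high libraries, with pig 4 the lowest and pig 5 the highest of the lrNK libraries. The mean of 1002 ± 139 CPM was 1.61 times that of blood cNK cells (622 ± 79.1) and 1.44 times that of liver CD8α high NK cells (696 ± 129; SD, n = 5). The log2 fold change was 0.69 ± 0.15 over blood cNK cells (adjusted p = 0.00287, edgeR, Benjamini-Hochberg) and 0.53 ± 0.15 over liver CD8α high NK cells (adjusted p = 0.0237, edgeR, Benjamini-Hochberg), both in 5 of 5 pigs. The latter did not pass without pig 2 (0.55, adjusted p = 0.0743) or pig 5 (0.43, adjusted p = 0.155, both edgeR with Benjamini-Hochberg adjustment). Of the other TEC kinases, *TEC* rose by 2.08 ± 0.46 over blood cNK cells (adjusted p = 0.0024, edgeR, Benjamini-Hochberg) and by 1.67 ± 0.45 over liver CD8α high NK cells (adjusted p = 0.0134, edgeR, Benjamini-Hochberg), the latter not without pig 5 (1.46, adjusted p = 0.0956).

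*LAT*, the membrane scaffold on which phospholipase C-γ and adaptors assemble, was at 69.6, 70.7, 49.4, 79.5 and 75.4 CPM in blood cNK cells, 60.4, 58.5, 41.0, 63.4 and 67.6 CPM in the liver CD8α high population, and 16.2, 19.7, 70.6, 20.2 and 30.8 CPM in lrNK cells. In pigs 1, 2, 4 and 5, the lrNK library was below every other library, whereas in pig 3 it was the highest of that pig's libraries. Mean levels were 68.9 ± 11.6, 58.2 ± 10.2 and 31.5 ± 22.5 CPM (SD, n = 5). *LAT* fell by 1.14 ± 0.32 on the log2 scale in lrNK cells against blood cNK cells, in 4 of 5 pigs (adjusted p = 0.0140, edgeR, Benjamini-Hochberg). Against liver CD8α high NK cells the difference of −0.90 ± 0.31 did not pass (adjusted p = 0.0627, 95% interval from −1.55 to −0.24, edgeR, Benjamini-Hochberg). Without the lrNK library of pig 3, the differences were −1.63 (adjusted p = 2.01e-05) and −1.41 (adjusted p = 1.35e-04, both edgeR with Benjamini-Hochberg adjustment). With pig 1, 2, 4 or 5 left out, the fall against blood cNK cells no longer passed (adjusted p = 0.0763, 0.0846, 0.0967 and 0.0726, edgeR, Benjamini-Hochberg). *CD3G*, a T-cell receptor chain, was at 586, 104, 109, 370 and 276 CPM in lrNK cells, where *LAT* was highest in pig 3; its part in the *LAT* result was not tested.

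*LCP2*, the cytosolic scaffold that LAT recruits through adaptors, was at 531, 624, 595, 690.0 and 814 CPM in lrNK cells. It was at 385, 391, 342, 396 and 335 CPM in blood cNK cells, and at 467, 411, 396, 409 and 444 CPM in liver CD8α high NK cells. The lowest lrNK library was above all libraries of either CD8α high population, and the liver libraries were above the blood libraries in every pig. Means were 651 ± 107, 370 ± 28.9 and 425 ± 29.4 CPM, which put lrNK cells at 1.76 times the blood and 1.53 times the liver CD8α high level (SD, n = 5). *LCP2* rose by 0.82 ± 0.14 on the log2 scale over blood cNK cells (adjusted p = 1.69e-04, edgeR, Benjamini-Hochberg) and by 0.61 ± 0.14 over liver CD8α high NK cells (adjusted p = 0.00303, edgeR, Benjamini-Hochberg), in 5 of 5 pigs. The liver CD8α high level exceeded that of blood by 0.20 ± 0.14, with an interval from −0.08 to 0.48, and the ranges were parted only by 395.7 CPM in blood against 395.9 CPM in liver (adjusted p = 1.00, edgeR, Benjamini-Hochberg). The log2 ratio of *LAT* to *LCP2* CPM (each plus 1) was −4.53 ± 0.83 in lrNK, −2.42 ± 0.23 in blood cNK and −2.87 ± 0.23 in liver CD8α high NK cells (SD, n = 5), and the lrNK range from −5.03 to −3.06 met the liver CD8α high range of −3.24 to −2.67 through pig 3.

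*PLCG1*, which encodes phospholipase C-γ1, was the lowest of the 8 genes in count. Raw counts in lrNK cells were 1, 4, 1, 0 and 7, against 46, 19, 13, 56 and 8 in blood cNK cells and 33, 52, 13, 170 and 47 in liver CD8α high NK cells. As CPM these were 0.42, 1.92, 0.49, 0 and 1.83 in lrNK cells, 12.5, 5.21, 3.53, 20.2 and 2.73 in blood, and 11.4, 13.7, 3.62, 29.3 and 11.2 in liver CD8α high NK cells. All lrNK libraries were below all others, and the blood and liver CD8α high libraries of pig 4 were the highest. A count of 3 corresponds to 0.784 to 1.46 CPM in the lrNK libraries, so the level in pigs 1, 3 and 4 was below what a count of 3 resolves. The summed counts were 13 in lrNK cells, 142 in blood cNK cells and 315 in liver CD8α high NK cells, and the rate ratio was 0.110 against blood (exact 95% interval 0.0571 to 0.194) and 0.0600 against liver CD8α high NK cells (0.0316 to 0.104); these intervals cover counting error only. The fitted log2 fold change was −3.20 ± 0.80 against blood (adjusted p = 0.00723, edgeR, Benjamini-Hochberg) and −3.85 ± 0.81 against liver CD8α high NK cells (adjusted p = 0.00193, edgeR, Benjamini-Hochberg), lower in 5 of 5 pigs. Without pig 1 or pig 4 the difference from blood did not pass (adjusted p = 0.0527 and 0.0647, edgeR, Benjamini-Hochberg). In a fit of only lrNK and blood cNK cells, *PLCG1* did not pass the filter on low counts and was not tested. Its test against blood thus rested on the fit that also held the liver CD8α high libraries. With pigs or single libraries left out, the log2 fold change ran from −3.91 to −2.30 against blood and from −4.43 to −3.03 against liver CD8α high NK cells.

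*PLCG2*, which encodes the phospholipase C-γ2 found in B and NK cells, moved the other way. It was at 287, 384, 460.3, 296 and 308 CPM in lrNK cells, 252, 231, 227, 212 and 189 CPM in blood cNK cells, and 229, 213, 225, 241 and 232 CPM in liver CD8α high NK cells. All lrNK libraries were above all others, those of pigs 2 and 3 by the most, and the CD8α high populations overlapped. The mean of 347 ± 74.0 CPM was 1.56 times that of blood cNK cells (222 ± 23.5) and 1.52 times that of liver CD8α high NK cells (228 ± 10.1; SD, n = 5). On the log2 scale *PLCG2* rose by 0.64 ± 0.15 over blood (adjusted p = 0.00399, edgeR, Benjamini-Hochberg) and by 0.60 ± 0.15 over liver CD8α high NK cells (adjusted p = 0.00753, edgeR, Benjamini-Hochberg), in 5 of 5 pigs. The second of these did not pass without pig 2 (0.54, adjusted p = 0.0671, edgeR, Benjamini-Hochberg). Without the lrNK library of pig 3 the rises were 0.54 (adjusted p = 0.00598) and 0.49 (adjusted p = 0.0154, both edgeR with Benjamini-Hochberg adjustment).

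**Figure D2:**
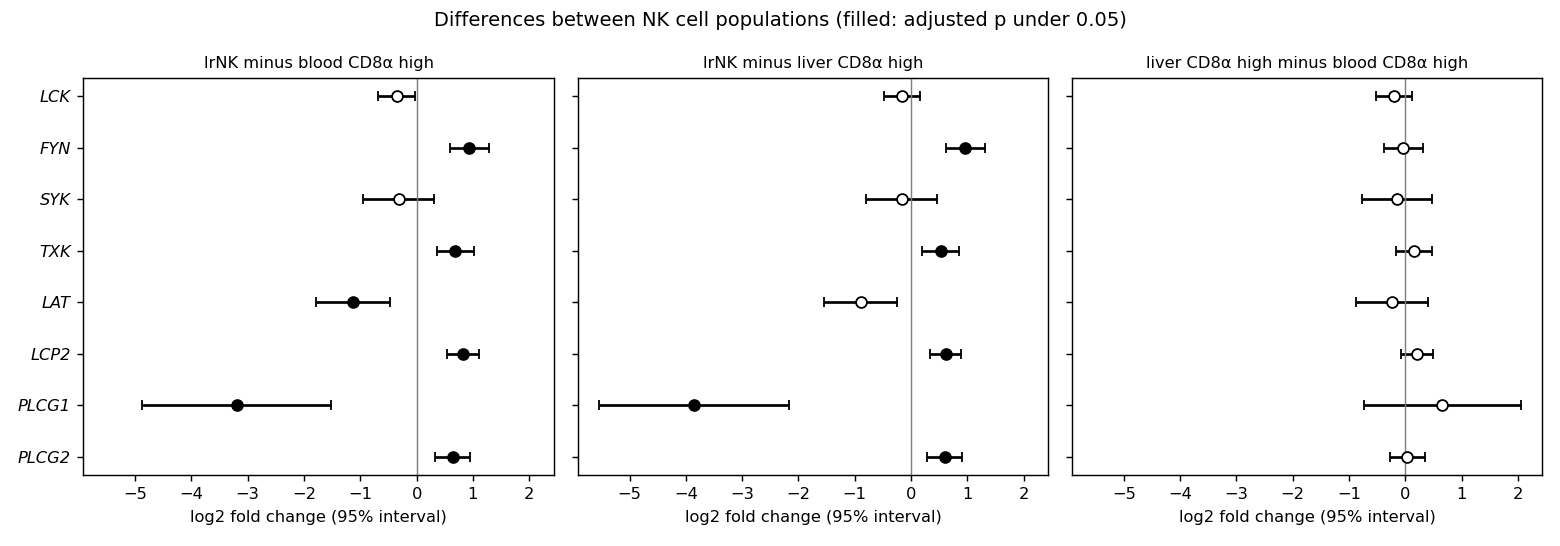
Log2 fold change of each gene (horizontal axis) between populations, with 95% intervals from edgeR's fit of 15 libraries and filled points for an adjusted p under 0.05. In lrNK cells *FYN* stood at 0.94, *TXK* at 0.69, *LCP2* at 0.82 and *PLCG2* at 0.64 against blood cNK cells, with *PLCG1* at −3.20 and *LAT* at −1.14, and no gene is filled for liver CD8α high against blood cNK cells.

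Between liver CD8α high and blood cNK cells no difference passed in the remaining genes. The log2 differences were −0.03 for *FYN*, −0.20 for *LCK*, −0.15 for *SYK*, 0.16 for *TXK*, −0.24 for *LAT*, 0.66 for *PLCG1* and 0.04 for *PLCG2*. Their 95% intervals were −0.38 to 0.31 for *FYN*, −0.52 to 0.13 for *LCK*, −0.77 to 0.47 for *SYK*, −0.16 to 0.48 for *TXK*, −0.88 to 0.40 for *LAT*, −0.74 to 2.06 for *PLCG1* and −0.27 to 0.35 for *PLCG2*. Only *LAT* and *LCK* were lower in liver CD8α high NK cells in all 5 pigs, and *LCP2* alone was higher in all 5. In the order of levels, lrNK cells thus stood apart for *FYN*, *TXK*, *LCP2*, *PLCG2* and *PLCG1*, while no difference between the neighbouring CD8α high populations passed in any of the 8 genes.

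The genes lie on 7 chromosomes of Sscrofa11.1, with *LCK* at 6:88719886-88745922, *FYN* at 1:77584675-77810605, *SYK* at 14:2103706-2160886, *TXK* at 8:37977222-38047876, *LAT* at 3:18638992-18644353, *LCP2* at 16:53696974-53741736, *PLCG1* at 17:43810003-43844553 and *PLCG2* at 6:6433146-6603092. Some genes overlap others in the annotation, and whether counting used strand is not given in the sources used here, so reads in shared stretches may belong to either gene. *LCP2* shares 1518 bases with *C16H5orf58*, which held 14104 counts over all libraries and rose by 0.58 ± 0.15 on the log2 scale in lrNK over blood cNK cells (adjusted p = 0.00854, edgeR, Benjamini-Hochberg). *PLCG1* shares 87 bases with *LOC110257392*, which held 8132 counts and was higher in lrNK cells by 0.82 ± 0.21 (adjusted p = 0.00796, edgeR, Benjamini-Hochberg), the opposite direction to *PLCG1*. The 2 overlapping genes in *FYN*, *LOC106508922* and *LOC102158093*, held 58 and 111 counts in all, against 13075 for *FYN* in the lrNK libraries alone.

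Over the 15 libraries, the gene with the most similar pattern was sought for each member among 6333 genes with a mean of at least 20 CPM (6334 for *PLCG1*), by the root mean square difference of centred log2 CPM. The nearest to *LCP2* was its neighbour *C16H5orf58* (0.144), followed by *MAPRE2* (0.173), which was also the nearest to *PLCG2* (0.167). For *LCK* they were *M6PR* (0.151) and *SSB* (0.157), and for *TXK* they were *EIF5B* (0.155) and *CCSAP* (0.165). The nearest to *FYN* were *GIT2* and *LRCH1* (0.209 each), to *SYK* the mitochondrial gene *ND6* (0.184) and *MORF4L1* (0.207), and to *LAT* *PLEKHG3* (0.282) and *KCNAB2* (0.299). The nearest to *PLCG1* were *PLBD1* (0.821) and *FAM129A* (0.847). These differences grow with the spread of the gene itself, which was an SD of 1.70 on the log2 scale for *PLCG1* and 0.25 to 0.77 for the others, so they are not compared between members.

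The other genes of the pathway, 101 symbols in 7 lists, gave 90 tested genes. Of these, 17 were higher and 16 lower in lrNK than in blood cNK cells, or 36.7% against 18.2% of all genes tested, and their median log2 fold change was 0.03. Against liver CD8α high NK cells 16 were higher and 14 lower, or 33.3% against 14.6% of all genes, with a median of 0.06. Whether these shares differ beyond chance was not tested, and the lists were chosen with earlier results of these data known. Between liver CD8α high and blood cNK cells none passed in edgeR, 9 of 90 had an unadjusted p under 0.05, as had 5.02% of all genes tested, none passed with the pig as a block and 1 did in DESeq2.

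Among 24 tested adaptors and exchange factors, 3 were higher and 3 lower in lrNK than in blood cNK cells (8.62% and 9.60% of all genes tested). *GRAP2*, the adaptor that links LAT to LCP2, was at 3.79 to 16.7 CPM in blood, at 5.53 to 25.1 in the liver CD8α high population and at 0, 0, 0, 0.843 and 0.522 CPM in lrNK cells, without overlap. *THEMIS2* fell by 2.56 ± 0.30 on the log2 scale (adjusted p = 1.99e-06, edgeR, Benjamini-Hochberg) and *GAB3* fell by 1.28 ± 0.20 (adjusted p = 1.00e-04, edgeR, Benjamini-Hochberg). *SH2D1B*, which encodes the EAT-2 adaptor of SLAM family receptors, rose by 1.46 ± 0.34 (adjusted p = 0.00397, edgeR, Benjamini-Hochberg). *BLNK*, the B-cell counterpart of LCP2, rose by 3.18 ± 0.68 (adjusted p = 0.00187, edgeR, Benjamini-Hochberg), from 0.341 to 7.33 CPM in blood to 18.5 to 49.0 CPM in lrNK cells. *NCK2* had an adjusted p of 0.0431 in edgeR with Benjamini-Hochberg adjustment, of 0.0531 with the pig as a block, and of 0.0612 to 0.258 without pig 1, 2, 4 or 5.

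Of 19 genes tested that restrain proximal kinases, 7 were higher and 2 lower in lrNK than in blood cNK cells (8.62% and 9.60% of all genes tested), with a median log2 fold change of 0.30. The membrane adaptor *SIT1* was at 15.2, 8.77, 7.06, 6.14 and 9.89 CPM in blood, 53.2, 4.75, 6.97, 9.65 and 3.34 in the liver CD8α high population, and 117, 67.7, 139, 126 and 75.2 in lrNK cells. *CBLB*, a ubiquitin ligase that restrains receptor signals, was at 249, 196, 229, 172 and 206 CPM in blood, 327, 223, 359, 260.2 and 252 in the liver CD8α high population, and 515, 553, 944, 607 and 710.2 in lrNK cells. The lrNK libraries were above all others for both genes. *SIT1* rose by 3.47 ± 0.57 (adjusted p = 1.43e-04, edgeR, Benjamini-Hochberg), *CBLB* by 1.66 ± 0.18 (adjusted p = 9.94e-07, edgeR, Benjamini-Hochberg) and *SLA*, an adaptor that brings CBL to its targets, by 1.99 ± 0.29 (adjusted p = 3.18e-05, edgeR, Benjamini-Hochberg). *DOK1*, *DOK2*, *PTPN6* and *UBASH3B* were the other 4 that rose, *DOK2* not without pig 2 or 3 (adjusted p = 0.0761 and 0.0937) and *UBASH3B* not without pig 1, 4 or 5 (0.0757 to 0.170, all edgeR with Benjamini-Hochberg adjustment). The phosphatase *PTPN2* fell by 0.89 ± 0.23 (adjusted p = 0.00944, edgeR, Benjamini-Hochberg) and *PAG1*, which anchors the SRC inhibitor CSK, fell by 0.67 ± 0.19 (adjusted p = 0.0175, edgeR, Benjamini-Hochberg). The *PAG1* call did not hold without pig 1 or 5 (adjusted p = 0.112 and 0.139, edgeR, Benjamini-Hochberg). *CSK* itself was at a log2 difference of −0.08 and did not pass.

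Of 4 receptor-type phosphatases that activate SRC kinases, *PTPRE* and *PTPRJ* fell in lrNK against blood cNK cells, as did 9.60% of all genes tested. *PTPRE* was at 367, 323, 394, 289 and 516 CPM in blood cNK cells and at 123, 133, 94.0, 219.6 and 182 CPM in lrNK cells, without overlap. Its log2 fold change was −1.33 ± 0.22 (adjusted p = 1.28e-04, edgeR, Benjamini-Hochberg), that of *PTPRJ* was −1.33 ± 0.33 (adjusted p = 0.00652, and 0.0569 without pig 5, edgeR, Benjamini-Hochberg), and *PTPRC* (CD45) stood at −0.01.

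After phospholipase C-γ, 4 of 32 tested genes were higher and 8 lower in lrNK than in blood cNK cells (8.62% and 9.60% of all genes tested), with a median log2 fold change of −0.32. Genes of the *RASGRP* family of exchange factors moved in opposite directions. *RASGRP2* was at 121, 176, 176, 221 and 149 CPM in blood and at 34.9, 64.3, 4.87, 51.1 and 18.8 CPM in lrNK cells, and fell by 2.27 ± 0.38 (adjusted p = 1.92e-04, edgeR, Benjamini-Hochberg). *RASGRP1* rose by 0.69 ± 0.18 (adjusted p = 0.0101, and 0.0677 without pig 1, edgeR, Benjamini-Hochberg) and *RASGRP3*, at 0 to 0.813 CPM in blood, was at 9.55 to 34.6 CPM in lrNK cells. *RASGRP3*, 1 of the 4 that were higher, held at most 3 counts in any blood library and 0 in liver CD8α high NK cells. That gene thus passed the filter on low counts only through the lrNK libraries, where it was high. Of the calcium channels of the endoplasmic reticulum, *ITPR1* was at 0.17 with a 95% interval from −0.62 to 0.97 and did not pass, while *ITPR2* was up by 0.84 ± 0.17 (adjusted p = 0.00143, edgeR, Benjamini-Hochberg) and *ITPR3* at −2.28 ± 0.62 (adjusted p = 0.0123, and 0.0514 without pig 5, edgeR, Benjamini-Hochberg). Of 4 calcineurin subunit genes, *PPP3R1* was at 0.34 with a 95% interval from −0.03 to 0.72 and did not pass, whereas *PPP3CA*, *PPP3CB* and *PPP3CC* fell, the last at −1.69 ± 0.20 (adjusted p = 3.56e-06, edgeR, Benjamini-Hochberg), as did *NFATC2*, *DGKD* and *PRKCB*, and *PRKCD* rose. The calls of *PPP3CB*, *PRKCB* and *PRKCD* did not hold without some pigs: 1, 2 or 4 for each of them, and also 5 for *PPP3CB* and *PRKCB* (adjusted p = 0.0613 to 0.220, edgeR, Benjamini-Hochberg).

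**Figure D3:**
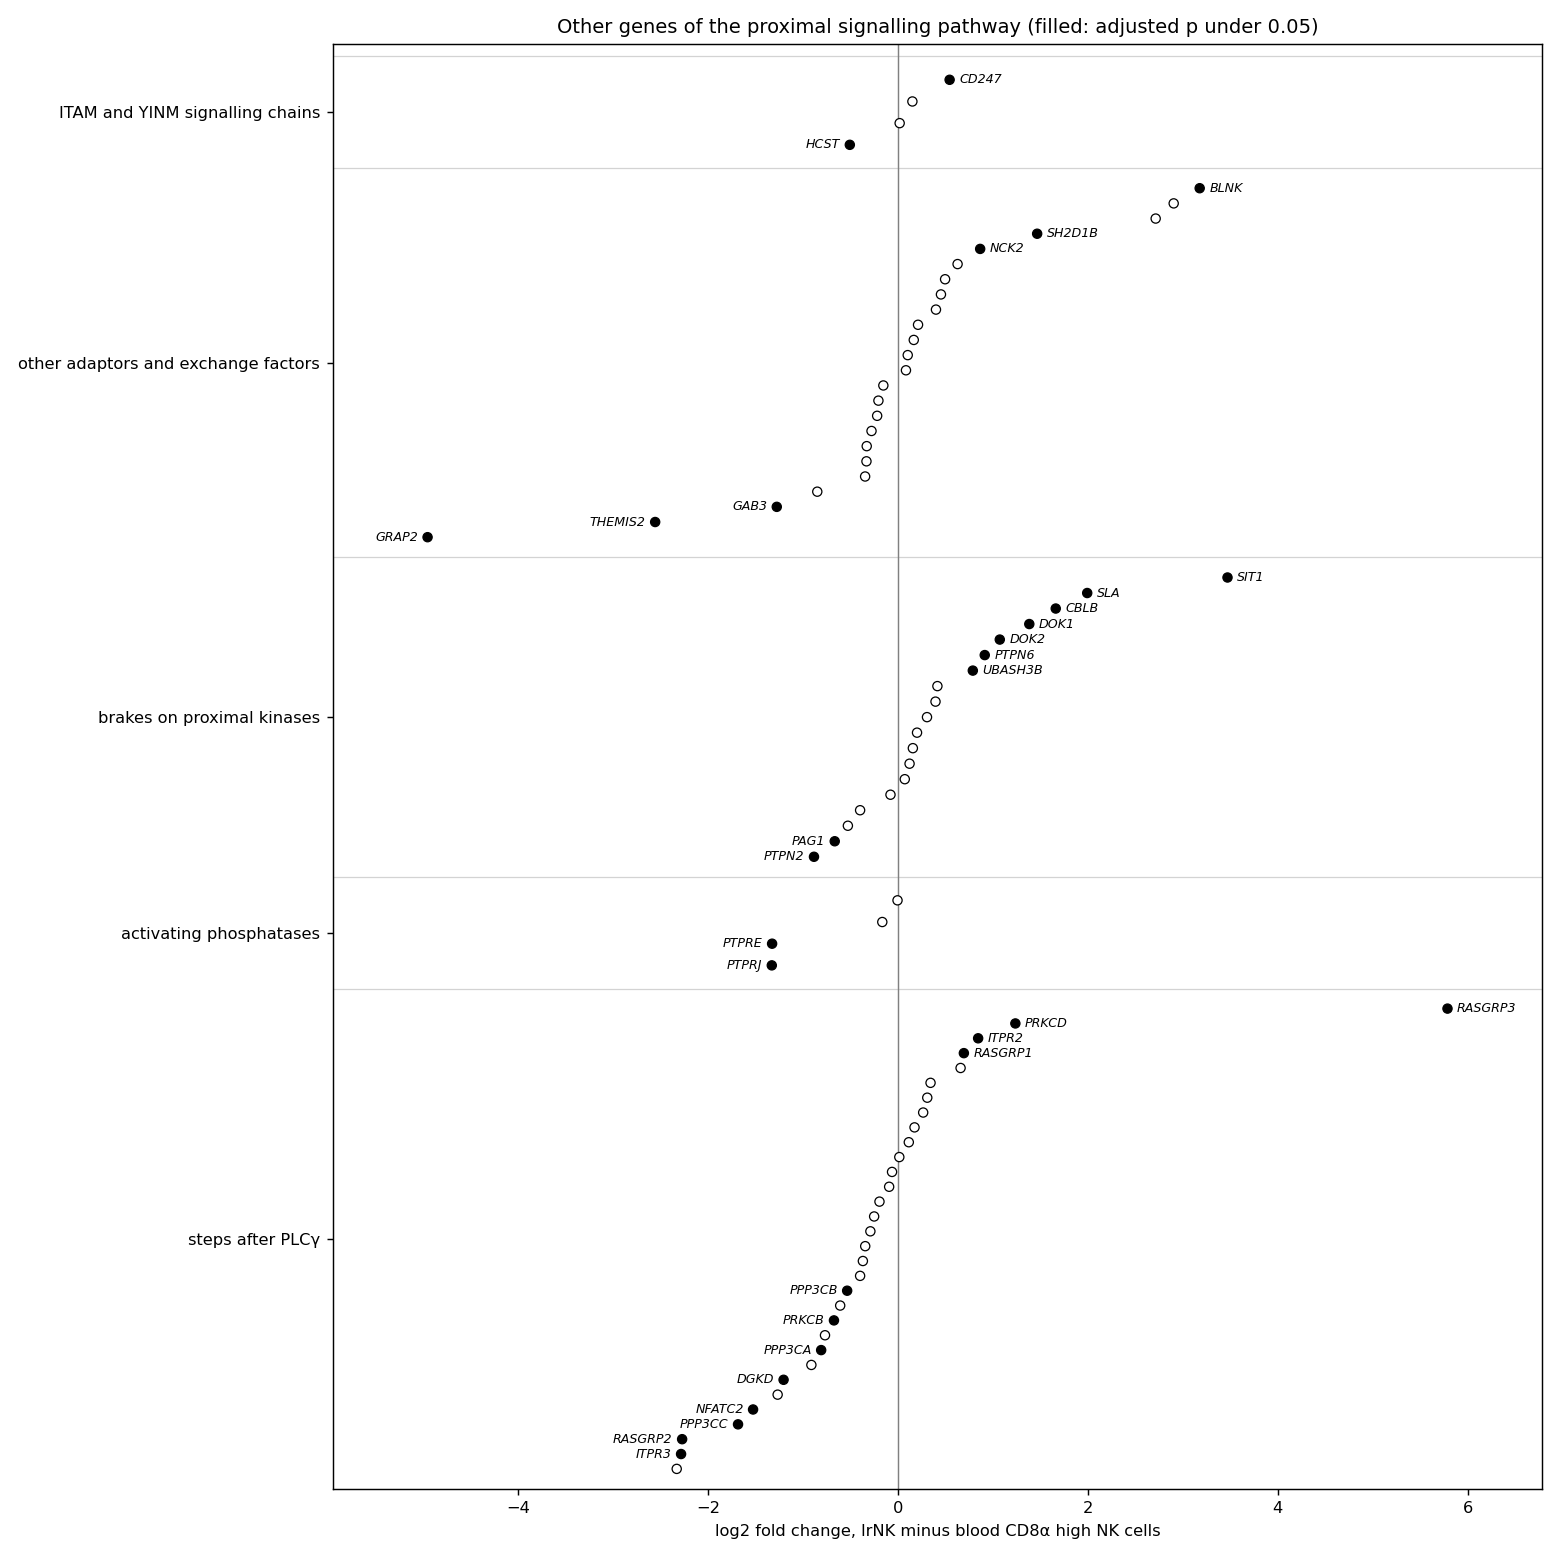
Log2 fold change between lrNK and blood cNK cells (horizontal axis) of the tested pathway genes in 5 of the 7 lists, grouped by role and ordered within each group by value, with genes of an adjusted p under 0.05 filled, and named where the text gives them. In the group of genes that restrain proximal kinases, 7 of 19 were higher and 2 lower, and after phospholipase C-γ 4 of 32 were higher and 8 lower.

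Among the markers of other cell types, the B-cell sums were higher and the T-cell sums lower in lrNK cells than in both other populations. The 8 B-cell markers listed had 7 rows, with *MS4A1* the most abundant in 13 of 15 libraries and *CD79A* at 0 in all. They summed to 527, 799, 301, 896 and 310 CPM in lrNK cells, 79.9, 58.1, 131, 47.7 and 14.7 CPM in blood cNK cells, and 56.3, 26.6, 19.2, 2.24 and 0 CPM in liver CD8α high NK cells. All 6 tested B-cell markers were higher in lrNK cells in both comparisons (8.62% and 6.96% of all genes tested), although without some pigs *CD79B*, *PAX5* and *FCRLA* did not pass against blood cNK cells. The lrNK gate took CD8α dim cells without CD3 and CD172a, and so was set to leave out cells without CD8α. *SYK*, *PLCG2*, *BLNK*, *BTK* and *RASGRP3* are also expressed in B cells, and the part of this signal in their levels was not tested.

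T-cell markers, of which *CD4*, *CD5* and *CD28* were at 0 in every library, summed to 637, 939.9, 743, 1203 and 878 CPM in blood cNK cells, 722, 788, 714, 907 and 1076 CPM in the liver CD8α high population, and 593, 109.9, 120.3, 383 and 291 CPM in lrNK cells. *CD3G* made up nearly all of these sums, in cells whose gates had left out CD3-positive cells. Of the 3 T-cell markers tested between lrNK and blood cNK cells, *CD3G* alone passed, and fell by 1.58 ± 0.34 in lrNK cells (adjusted p = 0.00216, edgeR, Benjamini-Hochberg). *CD3E* averaged 2.12 CPM in lrNK and 10.2 in blood cNK cells, and *CD3D* went the other way, at 8.43 and 3.78 CPM (adjusted p = 0.301 and 0.188, edgeR, Benjamini-Hochberg). The 10 monocyte, macrophage and dendritic cell markers summed to at most 25.6 CPM (lrNK, pig 4), all of it *LYZ*. Of these, 1 was tested, and in lrNK cells it was at a log2 difference of 4.57 from liver CD8α high NK cells. It passed there in edgeR (6.96% of all genes were higher), but not with the pig as a block. Against blood cNK cells it was at 1.88 and did not pass. The 8 markers of liver parenchyma and endothelium summed to at most 18.5 CPM. The 7 neutrophil, platelet, mast and red cell markers with a row summed to at most 55.3 CPM in any library other than the blood library of pig 4, which was at 306 CPM.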

How the data were processed

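The authors trimmed the 3′ reads, aligned them to Sscrofa11.1 (HISAT2, per the submitters' processing notes) and deposited raw counts per gene for 15 libraries, whole numbers without normalization; the counting tool and its strand setting are not given in the sources used here. The test was that of edgeR 4.0.16 (R 4.3.3): TMM scaling, filterByExpr by population (10939 of 29886 genes), 1 quasi-likelihood fit of all 15 libraries, and p-values adjusted after Benjamini and Hochberg over these genes (threshold 0.05). The standard error is the absolute log2 fold change divided by the square root of F, and intervals are 95%. DESeq2 1.42.0 was an alternative, beside other filters and normalization, robust dispersion, the pig as a block, a fit of only 2 populations, a threshold of 0.01, and libraries or pigs left out. Scripts were tested on simulated counts. Figures were drawn with matplotlib 3.10.9 in Python 3.11.15.

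The pig numbers come from the labels and the study's methods, by which blood and liver cells came from the same animals. Deviations from population means correlated at a mean r of 0.107 for libraries of the same pig (15 pairs, −0.0191 to 0.193) and −0.0265 for different pigs, across genes. Within each population, no library was a repeat of another, since all pairs differed beyond counting noise (chi-square per degree of freedom at least 9.41). Nothing else is read from this comparison.

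Members and lists were chosen with earlier results of these data known. Genes named are the members, the markers, and from each pathway list up to 3 largest rises and 3 largest falls per comparison with an adjusted p under 0.05, 1 direction in all 5 pigs and a mean of at least 10 CPM, plus the 2 genes nearest to each member in pattern (prior count 2). *GRAP2*, *RASGRP3*, *ITPR1*, *PPP3R1*, *LYN*, *PRKCD*, *CSK*, *PTPRC*, *FCER1G*, *TYROBP* and the genes listed only by name or for their overlap were named after their values were seen. Some genes picked by these rules are not reported here. Gene positions come from a RefSeq table of the same assembly.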

Additional observations from a re-analysis of the deposited data

Results flagged for a closer look

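*LAT* in the lrNK library of pig 3 was at 70.6 CPM, far from the other 4 lrNK libraries, which ran from 16.2 to 30.8 CPM. The gap to the nearest of them was 0.731 of the whole range, above the critical value of 0.71 for 5 samples. This was 1 of 24 sets of 5 libraries examined, a rule by which chance sets apart about 1 in 20. The same library differed most from the rest of its population across all genes. Why it differed was not tested.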

How the results depend on the processing

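Of the called differences, those of *FYN* and *LCP2* in lrNK cells kept their direction and passed under all alternatives, in both comparisons, as did *TXK* and *PLCG2* against blood cNK cells and *PLCG1* against liver CD8α high NK cells. With the replicate block (the pig), 6, 5 and 0 of the 8 genes passed for lrNK against blood, lrNK against liver CD8α high and liver CD8α high against blood cNK cells, as without it, and among all genes 2120, 1716 and 8; it changed no call of a member. Against liver CD8α high NK cells 3 to 6 members passed when a pig or 1 library was left out, and *LAT* also passed without a filter on low counts (adjusted p = 0.0284, edgeR, Benjamini-Hochberg). The sign turned where no difference had passed: with pigs or single libraries left out, *SYK* ran from −0.30 to 0.07 against liver CD8α high NK cells (0.062 without pig 3, 0.067 without its lrNK library), and between liver CD8α high and blood cNK cells *FYN* ran from −0.14 to 0.11, *SYK* from −0.24 to 0.075 and *PLCG2* from −0.0075 to 0.095. At an adjusted p under 0.01, 1199 genes differed between lrNK and blood cNK cells, 947 between lrNK and liver CD8α high NK cells, and 0 between the CD8α high populations. With pigs or libraries left out, the lrNK against liver CD8α high count ran from 1051 to 1764. The 7 genes between the CD8α high populations became 22 in DESeq2, 18 without a filter, 4 with robust dispersion, 16 in a fit of only these populations, and 0 to 12 with pigs or libraries left out. The cause was not tested. Depth limits *PLCG1* most, at 0 to 7 counts per lrNK library.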
